A study of Mus musculus with 23 samples.

Results

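The regulatory chromatin of 9 genes that pattern the embryonic forebrain was followed in early cortical neurons: Pax6, Emx1, Emx2, Otx1, Otx2, Nr2f1, Nr2f2, Dmrt3 and Six3. They are 9 of the 21938 protein-coding genes of the mouse annotation. They were chosen by name and not by a peak count, though with earlier results of these data known. A peak was counted for a gene when it lay within 5 kb of any annotated transcript start (a TSS peak), or over 5 kb and up to 100 kb from the nearest of its starts (a distal peak). Over all lists the 9 genes held 255 such peaks, of which 100 were TSS peaks and 155 were distal.

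The peaks came from ChIP-seq of cortex from Tg(Ebf2-EGFP)FB58Gsat mouse embryos, whose EGFP marks preplate neurons at first and later Cajal-Retzius cells. Sorting by fluorescence gave Ebf2-EGFP+ cells of embryonic day E11.5, of E13.5 and of E15.5, and Ebf2-EGFP- cells of E11.5 alone. All groups come from the transgenic line, in which EGFP follows Ebf2 regulatory sequence, and the number of embryos behind each ChIP library is not given in the sources used here. The Ebf2-EGFP- group holds everything in the dissected cortex that was not fluorescent, and the study describes it as mostly stem and progenitor cells. Each of the 8 combinations of cell group and antibody, against H3K27ac or H3K27me3, gave 1 deposited peak list, with no replicate lists.

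Single lists carry no replicate error, so the differences described here have no test and are set beside the same count over all protein-coding genes. The lists differed greatly in length. H3K27ac lists held 1386 peaks in E11.5 Ebf2-EGFP- cells, the only group with 1 ChIP library rather than 2, and, in Ebf2-EGFP+ cells of rising age, 37055, 102877 and 25787 peaks. Between the E11.5 groups the H3K27me3 lists ran the other way, with 48962 peaks in Ebf2-EGFP- and 6387 in Ebf2-EGFP+ cells. Those of E13.5 and E15.5 held 6721 and 1429 peaks. For both marks the longest Ebf2-EGFP+ list was thus that of E13.5 and the shortest that of E15.5. Among 6 progenitor markers, Sox2, Nes, Vim, Hes1, Hes5 and Fabp7, 0 had a TSS H3K27ac peak in the Ebf2-EGFP- list, against 4.7% of protein-coding genes, and 4 had H3K27me3 there, against 55.1%. In Ebf2-EGFP+ cells of that day 5 of the 6 were acetylated, against 55.8%. The counts in the Ebf2-EGFP- lists lie near the background, so the defining markers of the described cell type had no acetylation there by which it could be recognised. Of its 1009 TSS H3K27ac peaks over all genes, 621 (61.5%) overlapped its own H3K27me3 peaks. In the Ebf2-EGFP+ lists of rising age, 55.8%, 67.3% and 56.4% of protein-coding genes had TSS H3K27ac. Of 7 Cajal-Retzius markers 6, 7 and 5 had it, and Ebf2 and Calb2 lacked it at E15.5. Of 6 neuronal markers 5, 4 and 5 had it. So did 3, 4 and 2 of 4 GABAergic markers and 2, 3 and 1 of 3 endothelial markers. The counts were 2, 3 and 1 of 3 meningeal markers and 1, 3 and 2 of 5 blood and microglial markers. The part of list length, library number and other cells in the results was not tested. In sorted populations, fewer cells with a mark and less mark per cell cannot be told apart, and without strand a peak cannot be assigned between a gene and its antisense partner.

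In the early telencephalon, overlapping gradients of transcription factors give each sheet of progenitors its regional identity before neurons are born. Pax6 and Emx2 form opposing gradients across the cortical primordium, Otx genes set up the anterior brain, the orphan receptors Nr2f1 and Nr2f2 act caudally and ventrally, and Six3 acts at the rostral end. H3K27ac marks active promoters and enhancers, while H3K27me3 is deposited by Polycomb repressive complexes, which are known to hold developmental regulators silent.

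The sequences that follow are the places where H3K27me3 met H3K27ac at each gene. For each gene the H3K27me3 peak overlapping the most H3K27ac lists was taken, TSS peaks first, and its longest stretch outside annotated untranslated regions is shown, up to 300 bases. Capitals mark the bases covered by every H3K27ac list that overlapped the peak. All are on the plus strand of GRCm38.
Pax6 (chr2:105674772-105675071, TSS H3K27me3 of E11.5 Ebf2-EGFP-): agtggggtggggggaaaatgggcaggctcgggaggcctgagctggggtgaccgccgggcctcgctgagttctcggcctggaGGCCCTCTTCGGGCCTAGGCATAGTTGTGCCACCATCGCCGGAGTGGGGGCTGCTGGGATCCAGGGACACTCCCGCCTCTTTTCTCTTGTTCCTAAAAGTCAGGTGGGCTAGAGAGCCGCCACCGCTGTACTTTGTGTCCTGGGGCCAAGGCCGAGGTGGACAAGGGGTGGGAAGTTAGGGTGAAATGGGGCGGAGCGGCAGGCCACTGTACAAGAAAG
Emx1 (chr6:85188072-85188291, TSS H3K27me3 of E11.5 Ebf2-EGFP-): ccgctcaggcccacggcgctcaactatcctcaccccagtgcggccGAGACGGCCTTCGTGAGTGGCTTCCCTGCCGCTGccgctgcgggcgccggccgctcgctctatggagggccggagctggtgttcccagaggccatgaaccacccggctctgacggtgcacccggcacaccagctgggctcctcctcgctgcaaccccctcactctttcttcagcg
Emx2 (chr19:59459216-59459469, TSS H3K27me3 of E11.5 Ebf2-EGFP-): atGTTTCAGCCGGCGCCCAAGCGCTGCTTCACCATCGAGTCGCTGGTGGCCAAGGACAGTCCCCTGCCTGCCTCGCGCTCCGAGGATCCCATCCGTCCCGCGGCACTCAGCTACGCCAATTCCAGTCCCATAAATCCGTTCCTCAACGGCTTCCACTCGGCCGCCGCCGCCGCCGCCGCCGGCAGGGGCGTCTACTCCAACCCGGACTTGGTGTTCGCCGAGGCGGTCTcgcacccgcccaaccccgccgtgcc
Otx1 (chr11:22000460-22000646, TSS H3K27me3 of E13.5 Ebf2-EGFP+): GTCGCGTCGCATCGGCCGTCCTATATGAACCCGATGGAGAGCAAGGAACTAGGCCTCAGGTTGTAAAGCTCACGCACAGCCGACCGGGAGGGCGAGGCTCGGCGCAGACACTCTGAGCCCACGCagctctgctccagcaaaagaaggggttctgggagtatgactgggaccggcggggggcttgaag
Otx2 (chr14:48720972-48721251, distal H3K27me3 of E11.5 Ebf2-EGFP-): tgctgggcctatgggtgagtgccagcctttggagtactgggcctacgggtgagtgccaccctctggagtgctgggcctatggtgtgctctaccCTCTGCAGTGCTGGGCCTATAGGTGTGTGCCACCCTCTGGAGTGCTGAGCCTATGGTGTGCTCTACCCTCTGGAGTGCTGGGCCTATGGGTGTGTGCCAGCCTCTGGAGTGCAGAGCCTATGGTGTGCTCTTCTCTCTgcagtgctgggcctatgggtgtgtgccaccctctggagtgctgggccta
Nr2f1 (chr13:78198395-78198573, TSS H3K27me3 of E11.5 Ebf2-EGFP-): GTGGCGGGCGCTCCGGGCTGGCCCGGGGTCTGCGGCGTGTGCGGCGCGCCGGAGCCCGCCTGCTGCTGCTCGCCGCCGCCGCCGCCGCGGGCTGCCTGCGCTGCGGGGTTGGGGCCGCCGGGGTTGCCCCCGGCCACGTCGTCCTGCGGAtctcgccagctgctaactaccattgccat
Nr2f2 (chr7:70359984-70360273, TSS H3K27me3 of E13.5 Ebf2-EGFP+): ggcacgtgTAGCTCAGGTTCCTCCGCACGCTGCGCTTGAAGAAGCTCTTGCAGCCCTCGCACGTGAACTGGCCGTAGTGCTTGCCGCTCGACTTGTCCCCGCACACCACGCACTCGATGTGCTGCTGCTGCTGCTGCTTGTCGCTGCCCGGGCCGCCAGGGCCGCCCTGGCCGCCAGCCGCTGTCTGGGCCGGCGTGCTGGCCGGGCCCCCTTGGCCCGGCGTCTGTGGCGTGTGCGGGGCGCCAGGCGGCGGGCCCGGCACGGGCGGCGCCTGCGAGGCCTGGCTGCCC
Dmrt3 (chr19:25610799-25610888, TSS H3K27me3 of E11.5 Ebf2-EGFP-): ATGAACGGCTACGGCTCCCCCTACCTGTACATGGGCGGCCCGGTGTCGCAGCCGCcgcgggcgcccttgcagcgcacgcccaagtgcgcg
Six3 (chr17:85618097-85618396, TSS H3K27me3 of E11.5 Ebf2-EGFP-): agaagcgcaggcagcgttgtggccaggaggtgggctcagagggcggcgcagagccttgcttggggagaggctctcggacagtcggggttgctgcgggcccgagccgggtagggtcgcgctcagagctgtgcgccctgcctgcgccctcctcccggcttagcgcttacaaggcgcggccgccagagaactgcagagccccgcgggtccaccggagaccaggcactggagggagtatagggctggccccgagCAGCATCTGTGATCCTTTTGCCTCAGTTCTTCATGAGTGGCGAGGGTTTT
The stretches at Emx2, Nr2f1 and Dmrt3 hold the start codon of the gene, which lies at the left end for Emx2 and Dmrt3 and, on the minus strand, at the right end for Nr2f1. The stretches at Emx1, Emx2, Nr2f1, Nr2f2 and Dmrt3 were coding sequence throughout. Those at Pax6 and Otx1 held no coding base, the Six3 stretch lay 2391 bp from the nearest Six3 start on an exon of the antisense RNA Six3os1, and the Otx2 stretch lay in an intron of Otx2os1. GC content was 62.6% to 78.8% in the TSS stretches. The Otx2 stretch, with 1 CpG and 61.4% GC, was a tandem repeat, since 57.7% of its bases equalled the base 34 positions on, against 34.4% to 46.4% at the best spacing of the other stretches.

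In E11.5 Ebf2-EGFP- cells H3K27ac was absent from all 9 genes, at a TSS and out to 100 kb, while H3K27me3 lay at a TSS of 8. The TSS H3K27ac background in that short list was 4.7% of protein-coding genes and the distal background 15.3%. A count of 0 among 9 genes is near that TSS background. For H3K27me3 the background was 55.1%, against 8 of 9 genes here. The exception was Nr2f2, with 0 TSS peaks and 2 distal ones. The 18 TSS H3K27me3 peaks were short, from 130 to 408 bp, with a median of 215.5 bp against 200 bp over all genes. They numbered 3 at Nr2f1 and Dmrt3 and 2 at each of the other 6 genes, while the median protein-coding gene had 1.

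In E11.5 Ebf2-EGFP+ cells H3K27ac lay at a TSS of 8 of 9 genes, all but Otx2, against 55.8% of protein-coding genes. H3K27me3 lay at none of the 9, which is near its background of 9.27%. The lists of that day also differed in length. Ebf2-EGFP- and Ebf2-EGFP+ cells had 1386 and 37055 H3K27ac peaks, and 48962 and 6387 H3K27me3 peaks. The genes Pax6, Emx1, Emx2, Otx1, Nr2f1, Dmrt3 and Six3, 7 of the 9, had H3K27me3 in the Ebf2-EGFP- list and H3K27ac in the Ebf2-EGFP+ list of the same day. Over all genes 42.6% did so. The peaks of the opposite marks often lay on the same bases: 10 of the 18 H3K27me3 peaks in Ebf2-EGFP- cells overlapped an E11.5 Ebf2-EGFP+ H3K27ac peak, at 6 genes, which was 55.6% against 34.5% of all TSS H3K27me3 peaks. Otx1 was the gene of the 7 where they did not, with its H3K27me3 4585 and 4971 bp from the nearest start and its H3K27ac within 236 bp of one.

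**Figure D1:**
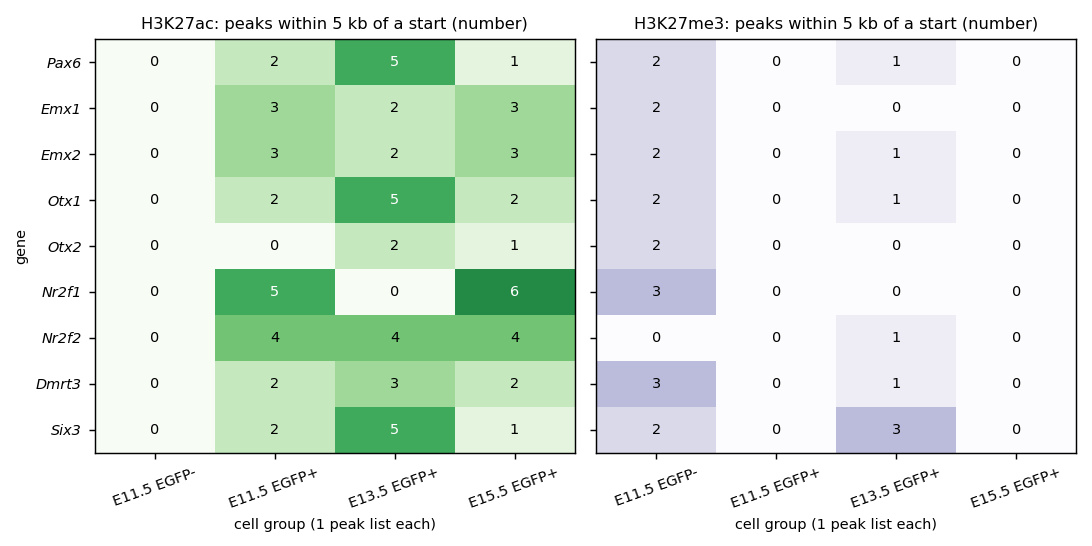
Number of peaks within 5 kb of any transcript start of the 9 genes (rows) in the 4 cell groups (columns), for H3K27ac (left, green) and H3K27me3 (right, purple), with 1 list per column. H3K27ac is 0 in the whole E11.5 Ebf2-EGFP- column, H3K27me3 is 0 in the E11.5 and E15.5 Ebf2-EGFP+ columns, and Nr2f1 has 5, 0 and 6 H3K27ac peaks in the Ebf2-EGFP+ columns.

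At E13.5 both marks were found together. H3K27ac lay at a TSS of 8 genes (background 67.3%), all but Nr2f1, and H3K27me3 at 6 (background 13.1%), namely Pax6, Emx2, Otx1, Nr2f2, Dmrt3 and Six3. These 6 all had H3K27ac as well, against 12.3% of protein-coding genes with both marks. Of the 2877 protein-coding genes with TSS H3K27me3 at E13.5, 2708 also had H3K27ac. The count with both marks therefore largely repeats the H3K27me3 count. Emx1 and Otx2 had H3K27ac only and Nr2f1 had neither. In the other cell groups 0 of 9 genes had both marks, with backgrounds of 4.08% in E11.5 Ebf2-EGFP- cells, 7.61% in E11.5 Ebf2-EGFP+ cells and 1.37% at E15.5. At Otx1, Nr2f2, Dmrt3 and Six3 an H3K27me3 peak of E13.5 overlapped an H3K27ac peak of E13.5. These were 4 of 8 peaks, or 50%, and over all genes 47.8% of TSS H3K27me3 peaks did so. The count of 6 rested on short peaks, and was 1 with peaks under 300 bp left out. It was 0 when each list was cut to its widest peaks at the length of the shortest list of the mark. After that cut TSS H3K27me3 was left at 2 of the genes and H3K27ac at 0. Short peaks were general, since TSS H3K27me3 peaks of E13.5 had a median width of 208 bp here and 152 bp over all genes. The share of all genes with both marks after either cut was not computed. Whether both marks sat on the same nucleosomes or in different cells of the sorted group cannot be told apart.

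At E15.5 all 9 genes had TSS H3K27ac, against 56.4% of protein-coding genes, and 0 had TSS H3K27me3, against 1.78%. H3K27ac at all 3 stages of Ebf2-EGFP+ cells was found at 7 genes, all but Otx2 and Nr2f1, with a background of 40.2%. The 9 genes had a median of 2, 3 and 2 TSS H3K27ac peaks at the successive stages, against 1, 1 and 1 over all genes. More room was available to them, since their starts gave TSS windows covering a median of 17.4 kb against 12.8 kb over all genes, and Pax6 alone had 24 starts. With only the 5′ end of each gene the counts were 6, 8 and 7 genes. The share of all protein-coding genes under that rule was not computed, so these counts cannot be set beside the backgrounds above.

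**Figure D2:**
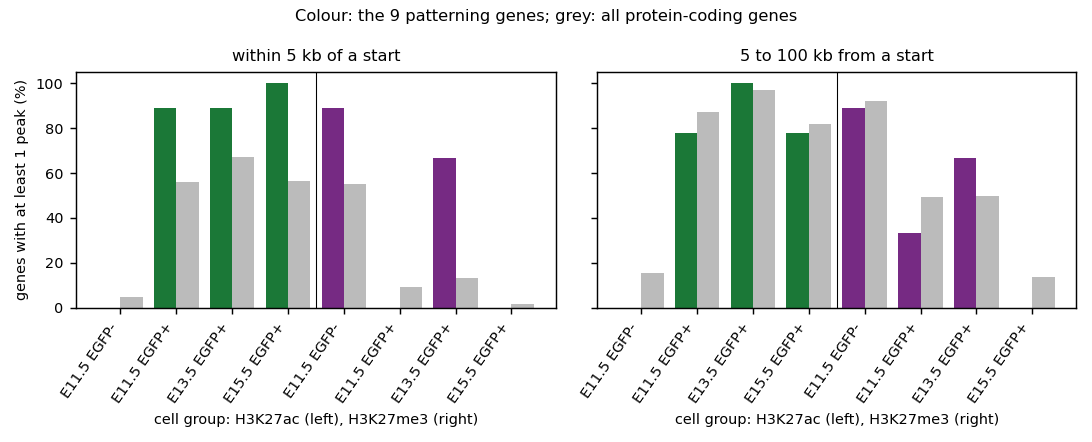
Percent of the 9 patterning genes (green for H3K27ac, purple for H3K27me3) and of all protein-coding genes (grey) with at least 1 peak within 5 kb of a start (left) and 5 to 100 kb from one (right), by list. Near the start the 9 genes lie above the background in the 5 lists where they are marked, and most clearly for H3K27me3 at E13.5 (6 of 9 genes against 13.1%), while at a distance they lie close to it or below it in most lists.

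The acetylated positions differed between stages. Of 23 TSS H3K27ac peaks at E11.5, 15 overlapped a peak of E15.5 (65.2%) but 5 a peak of E13.5 (21.7%), although the E13.5 list is the longest. Over all genes the shares were 48.7% and 43.9%. Nr2f1 alone held 5 of the 23 peaks and 5 of the 15 shared with E15.5. With 0 TSS H3K27ac peaks at E13.5, it could share none with that stage. The 23 peaks of E11.5 covered 8352 bp, the 28 of E13.5 covered 6594 bp and the 23 of E15.5 covered 11981 bp, so the peaks of E13.5 were more numerous and narrower. Their median width was 282 bp at E11.5, 201 bp at E13.5 and 482 bp at E15.5, which follows the medians of 249, 196 and 413 bp over all genes. Merging overlapping peaks of the 3 Ebf2-EGFP+ lists, TSS and distal, gave 149 H3K27ac sites. Of these, 120 were in 1 list, 23 in 2 and 6 in 3. The lists of E11.5, E13.5 and E15.5 supplied 44, 108 and 35 of the merged peaks. The same split over all genes was not computed, so the 120 sites cannot be set beside a background. The part of list length in that number was not tested.

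**Figure D3:**
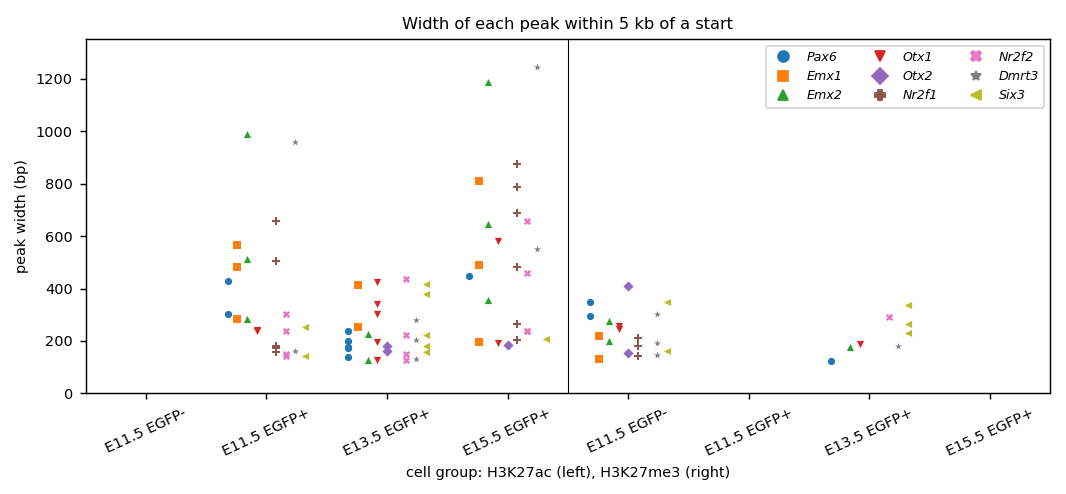
Width in bp of each peak within 5 kb of a start, by list (H3K27ac left of the line, H3K27me3 right of it), with 1 symbol per gene and 1 point per peak. The peaks of Dmrt3 (1245 bp) and Emx2 (1188 bp) at E15.5 are the widest, and the widest at E13.5 is 438 bp, at Nr2f2.

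Pax6 encodes a paired-box and homeodomain factor of cortical progenitors and of the eye. The study's RNA-seq put Pax6 among the genes expressed more highly in Ebf2-EGFP- than in Ebf2-EGFP+ cells at all 3 stages. The peaks given here do not measure expression. The gene spans chr2:105668900-105697364 on the plus strand. It had 2, 5 and 1 TSS H3K27ac peaks at the 3 stages, of widths 303 and 428 bp at E11.5, 137 to 239 bp at E13.5, and 446 bp at E15.5. The peaks of E11.5 and E15.5 gathered 6.10 to 7.76 kb inside the gene, around internal starts, and neither list marked the 5′ end itself. The H3K27me3 peaks of Ebf2-EGFP- cells, of 349 and 296 bp, lay in the same place, 6.05 and 7.30 kb inside, and each overlapped an E11.5 Ebf2-EGFP+ H3K27ac peak. At E13.5 the marks stood elsewhere, with H3K27ac spread from 1.68 kb upstream to 18.8 kb inside and a 123 bp H3K27me3 peak 1.49 kb upstream, within the antisense gene Pax6os1. No E13.5 peak overlapped one of the other stages at the Pax6 TSSs.

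Emx1, a homeobox gene of the dorsal telencephalon, spans chr6:85187438-85204462 on the plus strand. It had 3, 2 and 3 TSS H3K27ac peaks, and at all 3 stages a peak lay over the first exon. That peak was 483 bp wide at E11.5, split into 253 and 415 bp at E13.5, and was 810 bp wide at E15.5. An intron peak 2.81 kb inside the gene, 565 bp wide at E11.5, was found again at E15.5 with 488 bp, and not at E13.5. H3K27me3 was at the TSS in Ebf2-EGFP- cells alone, as peaks of 220 and 130 bp, the wider one on the first exon where all 3 H3K27ac lists overlapped it.

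Emx2, which promotes caudal and medial cortical identity, spans chr19:59458372-59465357 on the plus strand, next to the antisense gene Emx2os. Its peak at the start of the coding sequence was 988 bp wide at E11.5, 227 bp at E13.5 and 1188 bp at E15.5, and 3.69%, 64.4% and 10.8% of the genes marked in those lists had a TSS peak as wide. A second peak, over the 5′ end and an exon of Emx2os, was 513 bp at E11.5 and 646 bp at E15.5 and missing at E13.5. The H3K27me3 peaks were 275 and 198 bp in Ebf2-EGFP- cells and 178 bp in E13.5 Ebf2-EGFP+ cells. All 3 lay within the wide E11.5 and E15.5 H3K27ac peaks. The lists do not resolve Emx2 from Emx2os.

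Otx1, a homeobox gene that is expressed in deep cortical layers later on, spans chr11:21994764-22002897 on the minus strand. It had 2, 5 and 2 TSS H3K27ac peaks. The peak near 0.9 kb inside the gene was in all 3 lists, with widths of 239, 303 and 581 bp. A 192 bp peak over the 5′ end was seen at E15.5 only. The Ebf2-EGFP- H3K27me3 peaks of 246 and 256 bp sat in exon sequence 6.38 and 5.995 kb inside, the farther of them just within the 5 kb limit at 4971 bp. The nearest peak outside that limit at the 9 genes was an E13.5 H3K27ac peak of Emx1 at 5860 bp. The farthest peak within the 100 kb limit was an E15.5 H3K27ac peak of Emx1, 99967 bp from the nearest start. The E13.5 H3K27me3 peak of 187 bp overlapped an E13.5 H3K27ac peak of 339 bp.

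Otx2, needed for the anterior neural plate and later for the choroid plexus and medial telencephalon, was the least acetylated of the 9. It spans chr14:48657677-48673819 on the minus strand, opposite Otx2os1. It had 0, 2 and 1 TSS H3K27ac peaks in Ebf2-EGFP+ cells, all narrow. They were 181 and 160 bp at E13.5 and 184 bp at E15.5, and 100% of the genes marked at E15.5 had a TSS peak at least as wide. H3K27me3 in Ebf2-EGFP- cells gave the widest TSS peak of that mark at the 9 genes, 408 bp in an Otx2 intron 7.38 kb inside, and a 154 bp peak 0.393 kb upstream. No H3K27ac peak overlapped either. The shared distal site 47.3 kb upstream, with H3K27me3 of 280 bp in Ebf2-EGFP- cells and H3K27ac of 172 and 263 bp at E13.5 and E15.5, is the tandem repeat printed above.

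Nr2f1, the orphan receptor COUP-TFI that gives caudal areal identity, had the most TSS H3K27ac of the 9 at E11.5 and E15.5 and none at E13.5. It spans chr13:78188973-78199757 on the minus strand, with A830082K12Rik running the other way. The 5 peaks of E11.5 were 657, 159, 504, 174 and 182 bp wide. All 5 overlapped peaks of E15.5, where 6 peaks measured 873, 788, 687, 203, 482 and 265 bp. Only 2.11% of protein-coding genes had as many TSS peaks at E11.5 and 0.287% at E15.5. These peaks covered 1676 bp at E11.5 and 3298 bp at E15.5, the largest TSS cover of the 9 genes at E15.5. At E13.5 the locus was not empty, since 7 distal H3K27ac peaks lay 10.9 to 61.0 kb away, one of them 559 bp wide in an intron shared by Fam172a and Gm38604. H3K27me3 was found in Ebf2-EGFP- cells alone, in 3 TSS peaks of 143, 211 and 180 bp, of which 2 overlapped H3K27ac peaks of both E11.5 and E15.5 Ebf2-EGFP+ cells.

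Nr2f2, the related receptor COUP-TFII of the caudal ganglionic eminence and medial telencephalon, spans chr7:70351944-70366735 on the minus strand. It had 4 TSS H3K27ac peaks at each stage, up to 302, 438 and 656 bp wide. Unlike the other 8 genes it had no TSS H3K27me3 in Ebf2-EGFP- cells, and it had a peak of 290 bp at E13.5. That peak lay over a coding exon 63 bp from an internal start, and 282 of its bases were shared with the H3K27ac peaks of both E13.5 and E15.5. A narrow H3K27ac peak about 4 kb beyond the last of its starts came back at all 3 stages, with 237, 126 and 239 bp. Counting from the 5′ end alone, Nr2f2 kept peaks in 2 of 8 lists, against 4 with all starts, and Pax6 in 2 against 5, so both depend on internal starts.

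Dmrt3, a DM-domain factor of the medial and caudal pallium, is the gene with the widest peak of all. It spans chr19:25610301-25623921 on the plus strand. The peak over its first exon measured 957 bp at E11.5, 281 and 133 bp in pieces at E13.5, and 1245 bp at E15.5, and 4.25%, 47.6% and 9.14% of marked genes had a peak as wide. An upstream peak, 4.13 kb away at E13.5 (203 bp) and 4.27 kb away at E15.5 (552 bp), was missing at E11.5. The H3K27me3 peaks of Ebf2-EGFP- cells, of 148, 304 and 193 bp, stood in and around that exon, and E13.5 Ebf2-EGFP+ cells had a 180 bp H3K27me3 peak there, while E11.5 Ebf2-EGFP+ cells had 0. Among the RefSeq promoters of these genes that could be searched, that of Dmrt3 was the only one with the 8-letter EBF core CCCNNGGG, shown here with the match in capitals. The stretch lies within the 1245 bp H3K27ac peak of E15.5.
Dmrt3 (chr19:25610355-25610536, plus strand): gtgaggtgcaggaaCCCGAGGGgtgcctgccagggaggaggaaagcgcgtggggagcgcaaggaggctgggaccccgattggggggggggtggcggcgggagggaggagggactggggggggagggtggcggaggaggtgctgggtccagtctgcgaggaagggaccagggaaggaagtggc
The match begins 168 bp before the RefSeq start. RefSeq promoters, 250 bases before to 50 after a start on GRCm38.p6, were at hand for 8 of the 9 genes, all but Otx1, and numbered 13. CCCNNGGG, which reads the same on both strands, was in 1 of the 13, and in 13.7% of 32851 promoters. The OTX core TAATCC was in 2, at Otx2 and Nr2f2, against 7.06%, the homeodomain core TAATTA in 3, at Otx2 and Emx2, against 5.29%, and the nuclear receptor motif AGGTCA in 0, against 16.3%, counting both strands. Of the 9 stretches printed where H3K27me3 met H3K27ac, that at Six3 alone held CCCNNGGG, with 1 match. A match is a description of letters and not a bound site.

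Six3, which specifies the rostral forebrain and eye, spans chr17:85613608-85629302 on the plus strand and shares its start region with Six3os1 and 8 further non-coding genes. It had 2, 5 and 1 TSS H3K27ac peaks, up to 254, 417 and 206 bp wide. At E15.5 94% of marked genes had a peak as wide. H3K27me3 peaks were most numerous here at E13.5, with 3 TSS peaks of 229, 336 and 263 bp, a count reached by 0.447% of protein-coding genes. The 263 bp peak, on an exon 10.2 kb inside the 5′ end, also overlapped an Ebf2-EGFP- H3K27me3 peak of 161 bp and an E11.5 Ebf2-EGFP+ H3K27ac peak of 254 bp, while no E13.5 H3K27ac peak covered it. With a 1 kb window Six3 was marked in 3 of 8 lists, against 5.

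**Figure D4:**
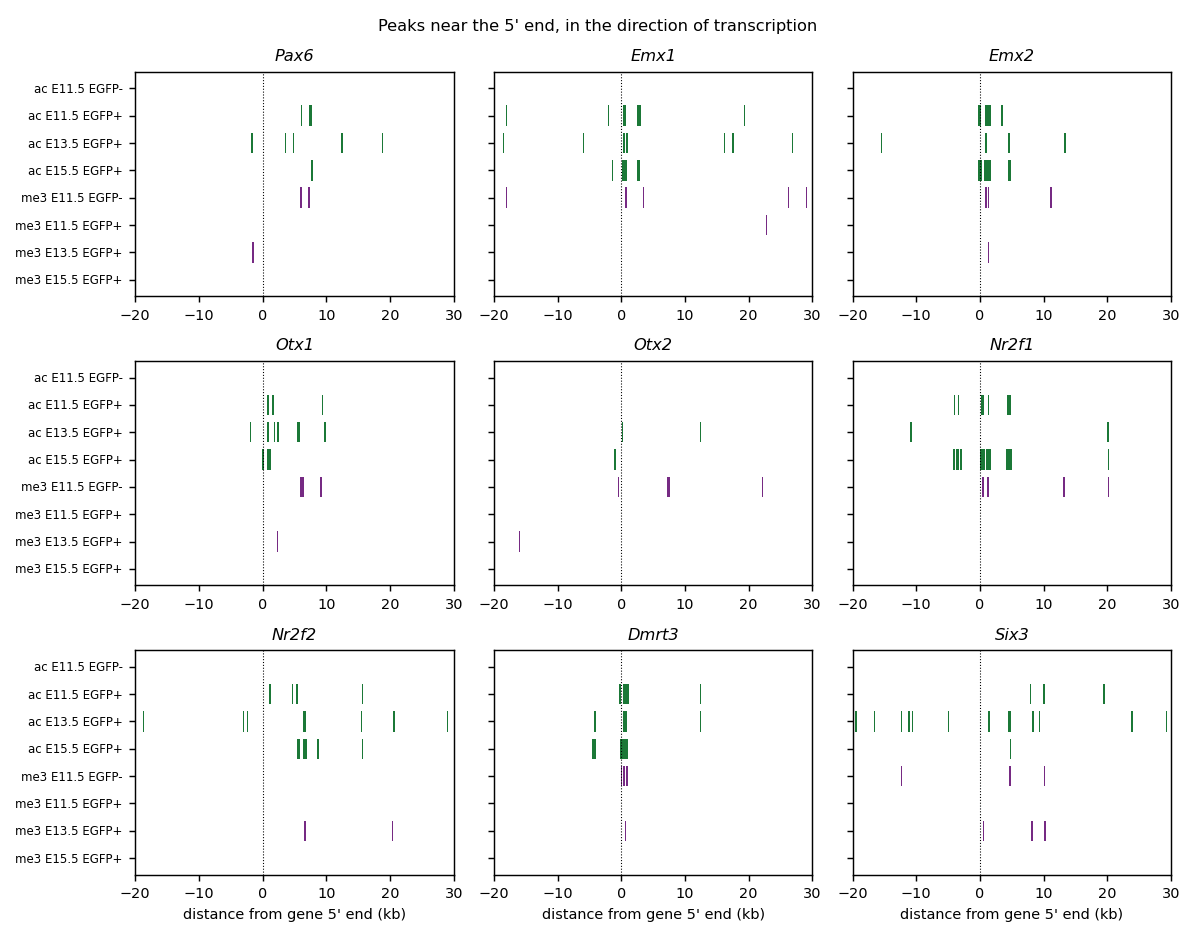
Position of every peak from 20 kb upstream to 30 kb downstream of the 5′ end of each gene, in kb along the direction of transcription, with 1 row per list (H3K27ac green, H3K27me3 purple) and narrow peaks drawn at a minimum visible width. The H3K27me3 of Ebf2-EGFP- cells near the start stands inside wide H3K27ac peaks of E11.5 and E15.5 at Emx2 and of E15.5 at Dmrt3, and at Nr2f1 the E13.5 row is empty near the start.

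Further from the starts, the share of the 9 genes with a peak was close to the background or below it, except for H3K27me3 at E13.5. Distal H3K27ac was found at 7 genes at E11.5 (background 87.1%), 9 at E13.5 (97.1%) and 7 at E15.5 (81.7%), and distal H3K27me3 at 8 genes of the Ebf2-EGFP- group (92%). In the Ebf2-EGFP+ groups distal H3K27me3 was found at 3 genes on E11.5 (49.3%), 6 on E13.5 (49.7%) and 0 on E15.5 (13.8%). The median numbers of distal H3K27ac peaks were 1, 7 and 1 against 4, 11 and 3 over all genes, and of H3K27me3 in Ebf2-EGFP- cells 3 against 5. These loci are poor in genes, with 6 of 9 having no other coding gene start within 100 kb, against 8.22% of protein-coding genes, and a median of 0 against 4. How far that accounts for the lower distal numbers was not tested.

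Distal peaks were most numerous at Emx1 (46) and Six3 (30), and fewest at Pax6 (4) and Otx1 (8). At Emx1 25 of the 46 lay in the gene Sfxn5 and 7 in Spr, so most cannot be given to Emx1, and at Six3 8 of 30 lay in its paralogue Six2. Of the 17 at Dmrt3, 10 lay in Dmrt1. Of the 80 distal H3K27ac peaks of E13.5, 48 had 1 of the 9 genes as the nearest coding start. Only 5 of the 80 overlapped E11.5 peaks (6.25%, against 13.7% of all distal peaks of that list) and 5 overlapped E15.5 peaks, against 9572 of the 83301 distal peaks of that list over all genes.

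**Figure D5:**
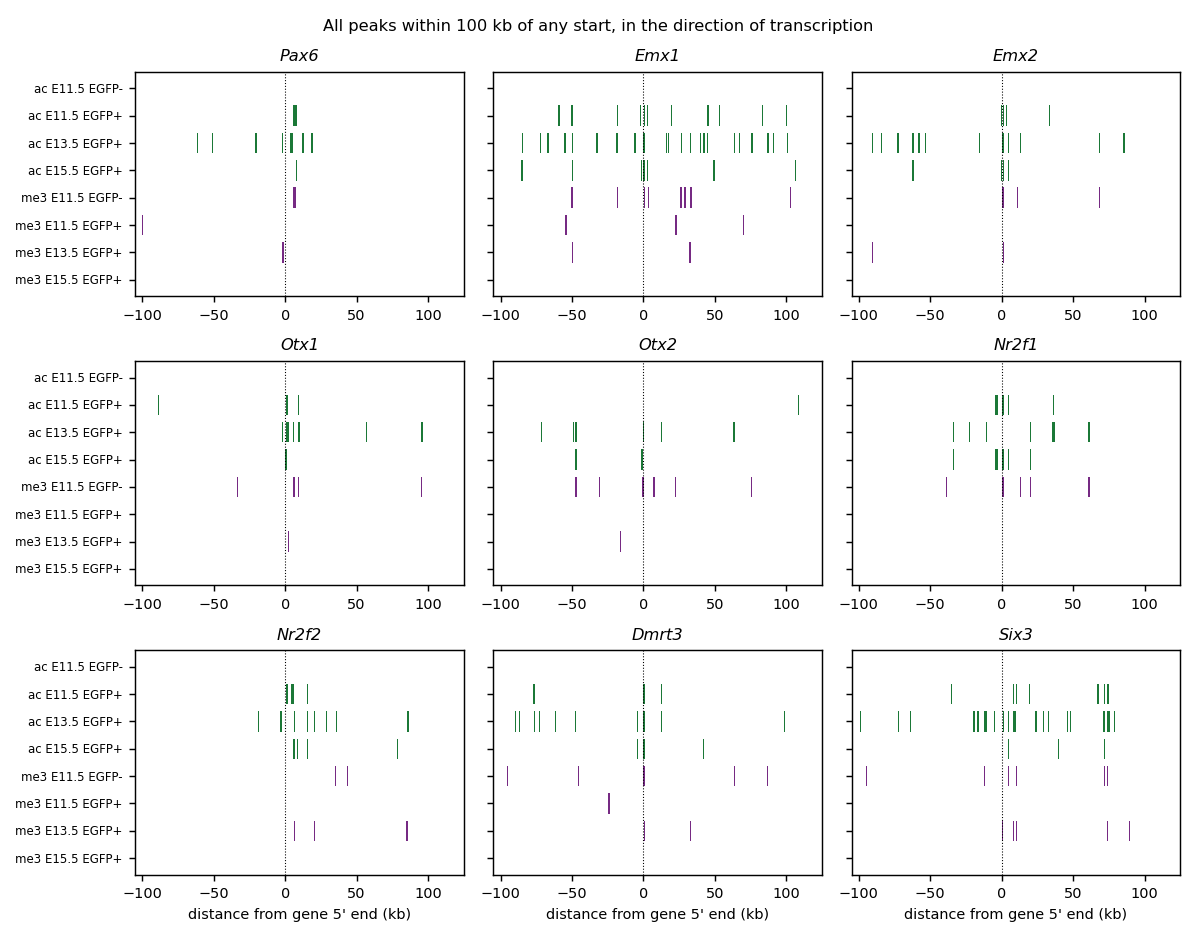
Position of every peak up to 100 kb from any start of the 9 genes, in kb from the 5′ end along the direction of transcription, with 1 row per list and narrow peaks drawn at a minimum visible width. The E13.5 H3K27ac row holds 22 distal peaks at Emx1 and 17 at Six3, and 3 at Pax6, all upstream.

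Some distal sites kept a position across lists. Near Nr2f1 an exon of 3110006O06Rik 20.2 kb downstream of the 5′ end had H3K27me3 in Ebf2-EGFP- cells (205 bp) and H3K27ac at E13.5 (227 bp) and E15.5 (268 bp). The Fam172a intron 61.0 kb away had H3K27me3 of 311 bp in Ebf2-EGFP- cells and the 559 bp H3K27ac peak of E13.5. On the Six2 exon 71.7 kb from the Six3 5′ end, an H3K27me3 peak of 146 bp in Ebf2-EGFP- cells overlapped Ebf2-EGFP+ H3K27ac peaks of 154 bp at E11.5 and 345 bp at E15.5. Of the 28 distal H3K27me3 peaks in Ebf2-EGFP- cells, 4 overlapped E11.5 Ebf2-EGFP+ H3K27ac (14.3%, against 21.9% over all genes).

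The same counts were made for 35 further forebrain patterning and boundary genes. TSS H3K27ac was at 28 of them in Ebf2-EGFP+ cells of E11.5 (80%, background 55.8%). It was at 27 on E13.5 (77.1%, background 67.3%) and at 18 on E15.5 (51.4%, background 56.4%), the last share being near that of all genes. H3K27me3 was at 26 in Ebf2-EGFP- cells (74.3%, background 55.1%), and 21 had that mark in Ebf2-EGFP- cells and H3K27ac in Ebf2-EGFP+ cells of the same day (background 42.6%). At E13.5 17 had H3K27me3 (background 13.1%), and 15 of these also had H3K27ac (background for both marks 12.3%). The pattern over all 8 lists of Pax6, Emx2, Otx1, Dmrt3 and Six3 was shared by Dmrta2, Gsx1, Olig2, Irx3 and En2 of those 35, and by 4.87% of protein-coding genes. That of Emx1 was shared by Sp8 and Gbx2 and by 19.3%, and that of Nr2f1, with acetylation at E11.5 and E15.5 and not at E13.5, by Gli3 and Shh and by 2.44%. The patterns of Otx2 and Nr2f2 were shared by 3.41% and 0.583%. At E15.5 TSS H3K27ac was present at 8 of 11 dorsal and medial genes, 3 of 6 ventral, 4 of 7 diencephalic and midbrain, 3 of 7 signalling and 0 of 4 rostral and eye field genes. The genes closest to each of the 9 in peak numbers over the 8 lists, near and distal, by Euclidean distance over 16 log2 values, were Samd5 for Pax6 (distance 1), Gpd1l for Emx1 (1.05), Dld for Emx2 (1.31), B3gat1 for Otx1 (1.27), Nefl for Otx2 (1.22), Spry2 for Nr2f1 (1.65), Ube3c for Nr2f2 (2.1), Fzd8 for Dmrt3 (1.2) and Barx1 for Six3 (1.33).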

How the data were processed

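H3K27ac and H3K27me3 ChIP-seq was available from 23 samples in 12 groups (15 ChIP, 8 input). Per the study's methods and the submitters' processing notes, the authors aligned reads to mm10 with Bowtie 1.1.2 on Galaxy, with up to 3 mismatches, and called peaks with MACS (p threshold 1e-05). Its version, the pooling of replicates and the use of input are not given in the sources used here. The lists the authors deposited give each peak a start, an end and a score. The deposited score was 0 for every peak, so no height or p-value was available, and the depth of each library is unknown. Starts were read as counted from 0 and are printed from 1. All peaks lay within GRCm38 chromosomes.

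The 9 genes and all lists were chosen with earlier results of these data known. Transcript starts came from GENCODE M21. Peaks were assigned to genes with Python 3.11.15, numpy 2.4.6 and pandas 2.3.3, and sequences were read with pysam 0.24.0. Overlap meant at least 1 shared bp. The assignment was tested on simulated peaks. Named were all 9 genes, each one's widest TSS peak per list and its widest distal peak, genes with a start within 5 kb, the 1 coding gene closest in peak numbers outside 1 Mb (1000 kb), and listed patterning genes with the same TSS marks. Repeats of the counts used a window of 1 kb, the 5′ end only, protein_coding transcripts only, peaks of at least 300 bp, lists of equal length, a distal limit of 50 kb, the nearest start only, a reciprocal overlap of 50% and merging within 1 kb.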

Additional observations from a re-analysis of the deposited data

How the results depend on the processing

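Of 104 repeats of the counts over the 9 genes, 76 stayed within 1.5 times the reported value and 28 did not. The 76 include every repeat of a count reported as 0. A rule that only narrows the count could not move these, so the 76 overstate how stable the other counts were. None of these 104 with the 1 kb window, the 5′ end only, protein_coding transcripts only, overlapping peaks of both marks, the 50 kb limit or merging within 1 kb went past that. Of 45 further repeats, of the number of lists that marked each gene, 18 went past it. With the 1 kb window Six3 was marked in 3 lists, against 5, and with the 5′ end only Pax6 in 2, against 5, and Nr2f2 in 2, against 4. The other 15 came from peak width or list length. Of the 28 changes in the counts over the 9 genes, 12 came with lists of equal length and 10 with peaks of at least 300 bp. With peaks of at least 300 bp, TSS H3K27ac at E13.5 was left at 4 genes, H3K27me3 at 4 in E11.5 Ebf2-EGFP- cells and 1 at E13.5, both marks at E13.5 at 1, distal H3K27ac at 2, 5 and 2 genes in the Ebf2-EGFP+ groups by age, and distal H3K27me3 at 2, 0 and 0 in the E11.5 Ebf2-EGFP-, E11.5 Ebf2-EGFP+ and E13.5 lists. With each list cut to its widest peaks, 1386 for H3K27ac and 1429 for H3K27me3, TSS H3K27ac was left at 2, 0 and 2 genes, H3K27me3 at 0 in Ebf2-EGFP- cells and 2 at E13.5, distal H3K27ac at 0 at every stage, distal H3K27me3 at 0, 0 and 2, and both marks at E13.5 at 0, the last a repeat chosen after seeing the data. Counting distal peaks only where the gene's own start was the nearest left 4 genes for H3K27ac at E15.5 and 3 for H3K27me3 at E13.5. For none of these repeats was the share of all protein-coding genes computed, so the counts cannot be set beside the backgrounds given earlier. A reciprocal overlap of 50% left 2 of 10 shared H3K27ac peaks between E11.5 and E13.5, 9 of 17 between E11.5 and E15.5, 6 of 16 between E13.5 and E15.5, and 3 of 5 shared H3K27me3 peaks between E11.5 Ebf2-EGFP- and E13.5 cells. The cut by score could not be run because every score is 0. No replicate could be left out with 1 list per group. No paired analysis was possible because the lists carry no replicate numbers and the counts come from no test.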
